A study of Homo sapiens with 12 samples.

Results

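The histone cluster genes encode the proteins around which DNA is wound. All genes whose deposited symbol began with HIST1, HIST2, HIST3 or HIST4 and went on with the name of a histone class were taken, which gave 67 of the 20531 genes listed. There were 6 H1, 15 H2A, 19 H2B, 13 H3 and 14 H4 genes, of which 54 carried the HIST1 prefix of the large cluster on chromosome 6. The rule also took in the H1 genes, which encode linker histones and are not core histones, so the genes are called histone cluster genes here. The test took genes that reached 10 counts in 1 or more of the 12 libraries, which were 43 of the 67 and 14012 of all genes. A gene can pass such a filter through the group in which it is high, so counts over the 43 describe the tested genes and not all 67.

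The RNAseq data came from SKBR-3, an established breast cancer line with amplified HER2 that is classed as ER-negative, and 4 groups had 3 replicates each. Cells were given a nontargeting (NT) control siRNA pool or a pool against FOXA1, a forkhead transcription factor, for 48 h by the labels (24 h by the study's methods), and then either DMSO or 300 nM lapatinib, which inhibits the kinases HER2 and EGFR, for 24 h. Both siRNA groups thus passed through a transfection and no untransfected cells were measured. The RNA was polyadenylated RNA from 1 cell line, and the labels do not say whether the replicates came from separate cultures, so p-values measure the spread between these samples.

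Most histone cluster genes are switched on at the start of S phase, when new chromatin has to be packed behind the replication fork. Their mRNAs usually end in a short stem-loop in place of a poly(A) tail, and the stem-loop binding protein SLBP holds on to this hairpin during 3' end processing, export and translation. Some of these genes also give longer, polyadenylated transcripts, which are the kind that a poly(A) selection retains.

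The hairpin itself was read from the GRCh38 genome within 150 bases after the stop codon of each gene in GENCODE v44. A hairpin of the form GGNNNTTTNNANNNCC was present at 63 of the 66 genes with a coding model, and 37 genes had the letters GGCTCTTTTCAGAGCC. No H4 gene had that form: 10 of them had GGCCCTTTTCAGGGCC and 3 had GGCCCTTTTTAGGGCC. The following 12 sites belong to genes on which the results below turn and show the 16 hairpin bases in capitals with 5 bases on either side, as DNA and 5′ to 3′ on the strand of the gene, while the coordinates are those of the capitals.
HIST1H1C (chr6:26055744-26055759, minus strand): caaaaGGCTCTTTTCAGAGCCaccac
HIST1H1E (chr6:26157095-26157110, plus strand): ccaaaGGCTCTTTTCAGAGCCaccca
HIST2H2AA3 (chr1:149842223-149842238, minus strand): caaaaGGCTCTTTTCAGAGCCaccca
HIST1H2AC (chr6:26124669-26124684, plus strand): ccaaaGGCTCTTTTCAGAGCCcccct
HIST3H2A (chr1:228457369-228457384, minus strand): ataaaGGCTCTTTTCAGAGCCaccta
HIST1H2BK (chr6:27146366-27146381, minus strand): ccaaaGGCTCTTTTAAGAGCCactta
HIST1H2BD (chr6:26158587-26158602, plus strand): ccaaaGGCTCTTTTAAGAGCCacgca
HIST2H2BE (chr1:149886188-149886203, minus strand): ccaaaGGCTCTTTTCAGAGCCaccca
HIST2H2BF (chr1:149811885-149811900, minus strand): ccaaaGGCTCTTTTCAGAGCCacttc
HIST1H3G (chr6:26270923-26270938, minus strand): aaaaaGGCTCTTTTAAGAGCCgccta
HIST2H4A (chr1:149833032-149833047, plus strand): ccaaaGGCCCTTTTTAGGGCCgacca
HIST1H4K (chr6:27831178-27831193, minus strand): caaaaGGCCCTTTTTAGGGCCcccac

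HIST1H2BK, HIST1H2BD and HIST1H3G had the form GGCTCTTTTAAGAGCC, which 10 genes carried. Genes that rose and genes that fell with lapatinib both had the form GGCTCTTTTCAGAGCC, for example HIST1H1C and HIST1H1E.

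Libraries held between 25749578 and 32271850 expected counts, and the histone cluster genes took between 0.0177% and 0.0254% of them. FOXA1 was at 8446, 8309 and 8767 normalised counts in NT DMSO and at 1160.1, 1362 and 1564 in siFOXA1 DMSO, and at 12168 to 13176 in NT lapatinib against 1642 to 2384 in siFOXA1 lapatinib. The siRNA groups did not overlap in either drug condition. The cells held the markers of a luminal HER2-amplified line, with ERBB2 at 210952 to 249127 normalised counts in NT DMSO, while PGR, PTPRC, CD3E, PECAM1 and COL3A1 stayed under 10 normalised counts in every library, ESR1 lay between 12.0 and 43.1, and COL1A1 was at 473 to 521 in NT DMSO. Normalised counts here are counts scaled by TMM to the average depth of the 12 libraries.

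The replicate 2 library stood apart in every group. The summed normalised count of the 67 genes was 7512, 5389 and 7136 in replicates 1, 2 and 3 of NT DMSO. It was 7612, 6237 and 7822 in NT lapatinib, 6829, 5310.1 and 6702 in siFOXA1 DMSO and 7554, 5803 and 7553 in siFOXA1 lapatinib. Replicate 2 was the lowest library of its group each time, and all 4 replicate 2 libraries lay below all 8 others.

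**Figure D1:**
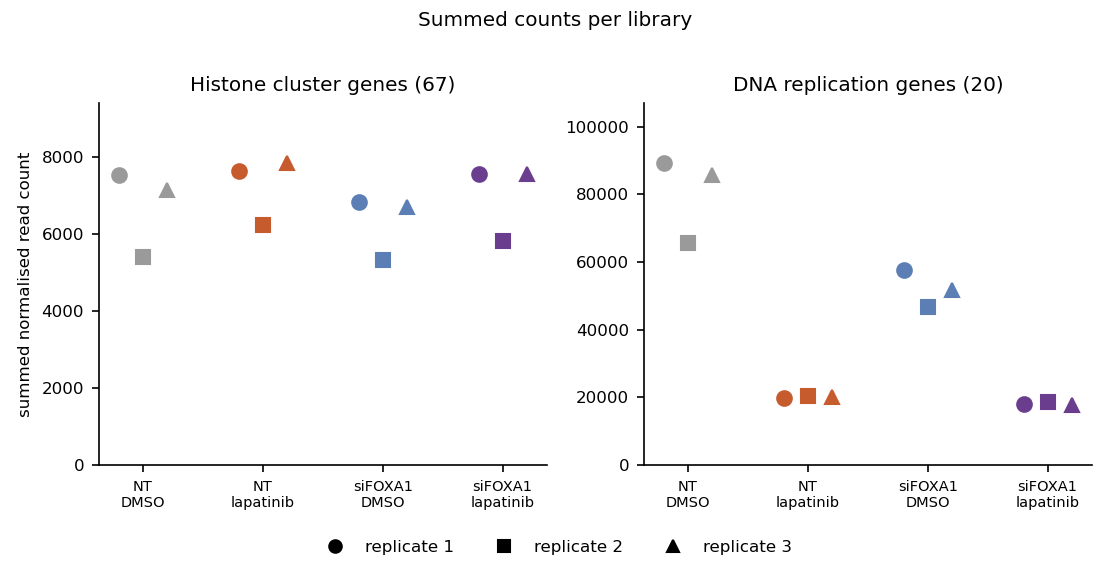
Summed normalised read counts per library (y axes from 0) in the 4 groups (x axis) for the 67 histone cluster genes and 20 DNA replication genes, with the marker giving the replicate number. The histone sums of replicate 2 lie between 5310.1 and 6237 and those of replicates 1 and 3 between 6702 and 7822, while the DNA replication sum falls with lapatinib.

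Replicate 2 was the lowest of its group in all 4 groups for 11 of the 43 tested genes (25.6%), against 14.4% of all tested genes. Among the 10 histone cluster genes with a mean of at least 100 normalised counts, this held for 8 (80.0%), against 17.4% of all genes at that level. The sum of the 20 DNA replication genes was 89155, 65563 and 85768 in NT DMSO and 19908, 20448 and 20074 in NT lapatinib. It was 57530, 46770 and 51645 in siFOXA1 DMSO and 18197, 18794 and 17659 in siFOXA1 lapatinib. Replicate 2 thus had the lowest sum in both DMSO groups and the highest in both lapatinib groups. These counts describe the libraries after replicate 2 was seen to be low, and no test was made of them. A list of other RNAs that lack a poly(A) tail was not read, because most of its counts fell on a row, SNORA8, whose deposited transcripts are far longer than a snoRNA. What sets replicate 2 apart was not tested. The replicate numbers also held across groups for genes in general, so a fit with the number as a block was made beside each comparison.

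Levels of the genes differed over a wide range. On the TPM scale, which divides by length, HIST1H2BK, an H2B gene, led with 226 ± 23.6 TPM (SD, n = 3) in NT DMSO. HIST2H2AA3, an H2A gene, followed at 66.2 ± 10.9 TPM and HIST1H1C, which encodes a linker histone, at 47.3 ± 7.0 TPM. These 3 genes did not overlap between libraries of NT DMSO. HIST3H2A at 24.2 ± 3.15, HIST1H2BD at 22.2 ± 3.73, HIST2H4A at 21.4 ± 2.83 and HIST1H2AC at 20.1 ± 5.01 TPM came next and did not differ beyond their spread. HIST1H2BK alone gave between 36.3% and 45.3% of the histone cluster counts of a library, and the 10 most abundant genes between 83.7% and 91.0%.

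The 24 genes that did not pass the filter had at most 9 counts in any library. Of these, 8 stayed under 3 counts in every library, which was not detectable at this depth, and 2 were at 0 in all 12. The genes with products known from the testis, HIST1H1T, HIST1H2AA, HIST1H2BA and HIST3H3, were all among the 24.

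The deposited gene models differed in how much they hold besides the coding sequence. The mean deposited transcript length less the coding length was over 200 bases for 12 of the 66 genes with a coding model, a limit set after seeing a gap between 171 and 395 bases. Their median was 6.84 TPM in NT DMSO and 9 of the 12 reached 5 TPM, whereas the median of the other 55 was 1.25 TPM and 8 reached 5 TPM. The 55 included HIST2H2BA, a transcribed pseudogene that has no coding model. HIST2H2BE had 1840 such bases, HIST1H2AC 1209.8 and HIST1H2BK 439. HIST1H1C with 89.0, HIST3H2A with 102 and HIST2H2AA3 with 140 bases were abundant without a long model, and HIST4H4 was at 0.553 ± 0.0208 TPM with one. Whether their reads came from polyadenylated transcripts was not tested.

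**Figure D2:**
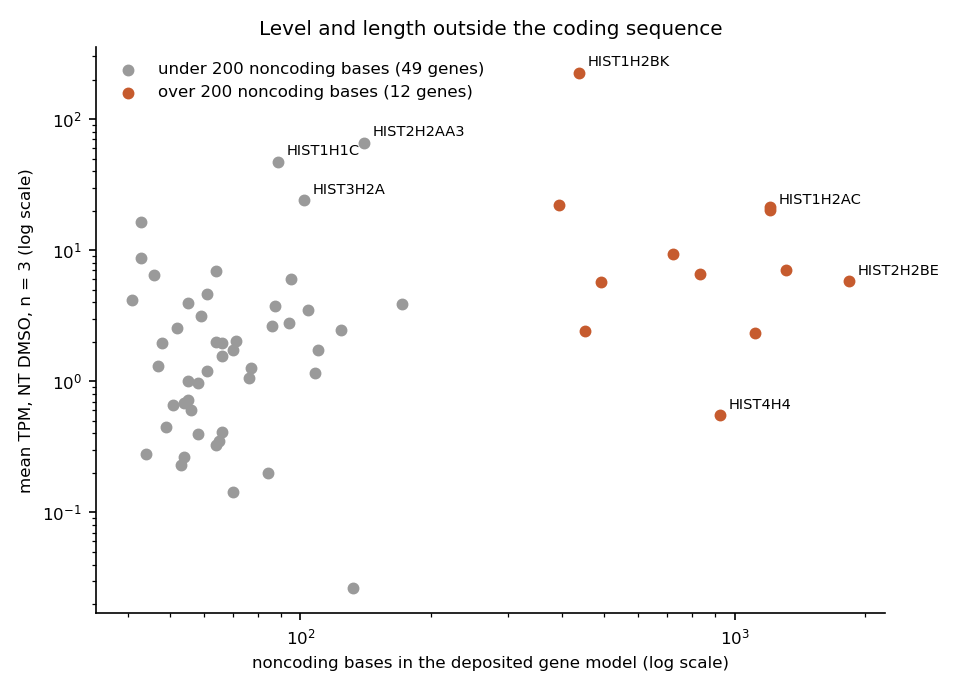
Mean TPM in NT DMSO (y axis, log scale, n = 3) against the noncoding bases of the deposited gene model (x axis, log scale) for the 61 histone cluster genes above 0 TPM with a coding model. Each point is a gene, and the 12 genes with over 200 noncoding bases, between 0.553 and 226 TPM, are drawn in orange.

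The counts of several genes may be shared with near-identical copies. The expected counts of HIST2H2AA3, HIST1H2BK, HIST1H2BD, HIST2H2BE and HIST2H2BF were whole numbers in 0 of 12 libraries, as can happen where reads are shared between features, and those of HIST1H1C, HIST1H2AC, HIST3H2A and HIST2H4A were whole in all 12. HIST1H4J and HIST1H4K traded places between libraries. HIST1H4K was at 41.4, 0 and 16.3 normalised counts in NT DMSO and HIST1H4J at 63.0, 83.3 and 77.7. In siFOXA1 lapatinib HIST1H4K was at 66.1, 84.6 and 39.9 and HIST1H4J at 36.2, 0 and 50.1, so each of these genes was at 0 in a library where the other was the highest of its group. Their sum was 104, 83.3 and 94.0 in NT DMSO, 113, 103 and 117 in NT lapatinib, 83.9, 89.3 and 79.0 in siFOXA1 DMSO and 102, 84.6 and 90.1 in siFOXA1 lapatinib.

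The response to lapatinib with NT siRNA was mixed. Of the 43 genes, 4 rose (9.3%), against 29.9% of the 14011 genes tested, and 9 fell (20.9%), against 28.6% (quasi-likelihood test of edgeR, Benjamini-Hochberg adjustment, adjusted p under 0.05). The genes that rose were HIST1H1C, HIST2H2AA3, HIST3H2A and HIST1H2BD, and the shares in both directions lay below those of all genes. Of the 43 genes, 33 had a mean under 100 normalised counts, whereas 10812 of the 14011 genes tested had at least 100. The shares of all genes, here and below, were thus not matched for abundance, and what low counts did to them was not tested. The median log2 fold change of the 43 was -0.12, against 0.03 for all genes tested. Among the 10 genes with a mean of at least 100 normalised counts, 4 rose and 1 fell. Without replicate 2 in either group, 5 of the 43 rose and 13 fell, with 32.3% and 33.1% of all genes. The number called lower changed by over 1.5 times without NT DMSO replicate 1 (4), NT lapatinib replicate 1 (4) or NT lapatinib replicate 3 (5). Values in parentheses after a library are here and below the count, or the log2 fold change of a gene, with that library left out.

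**Figure D3:**
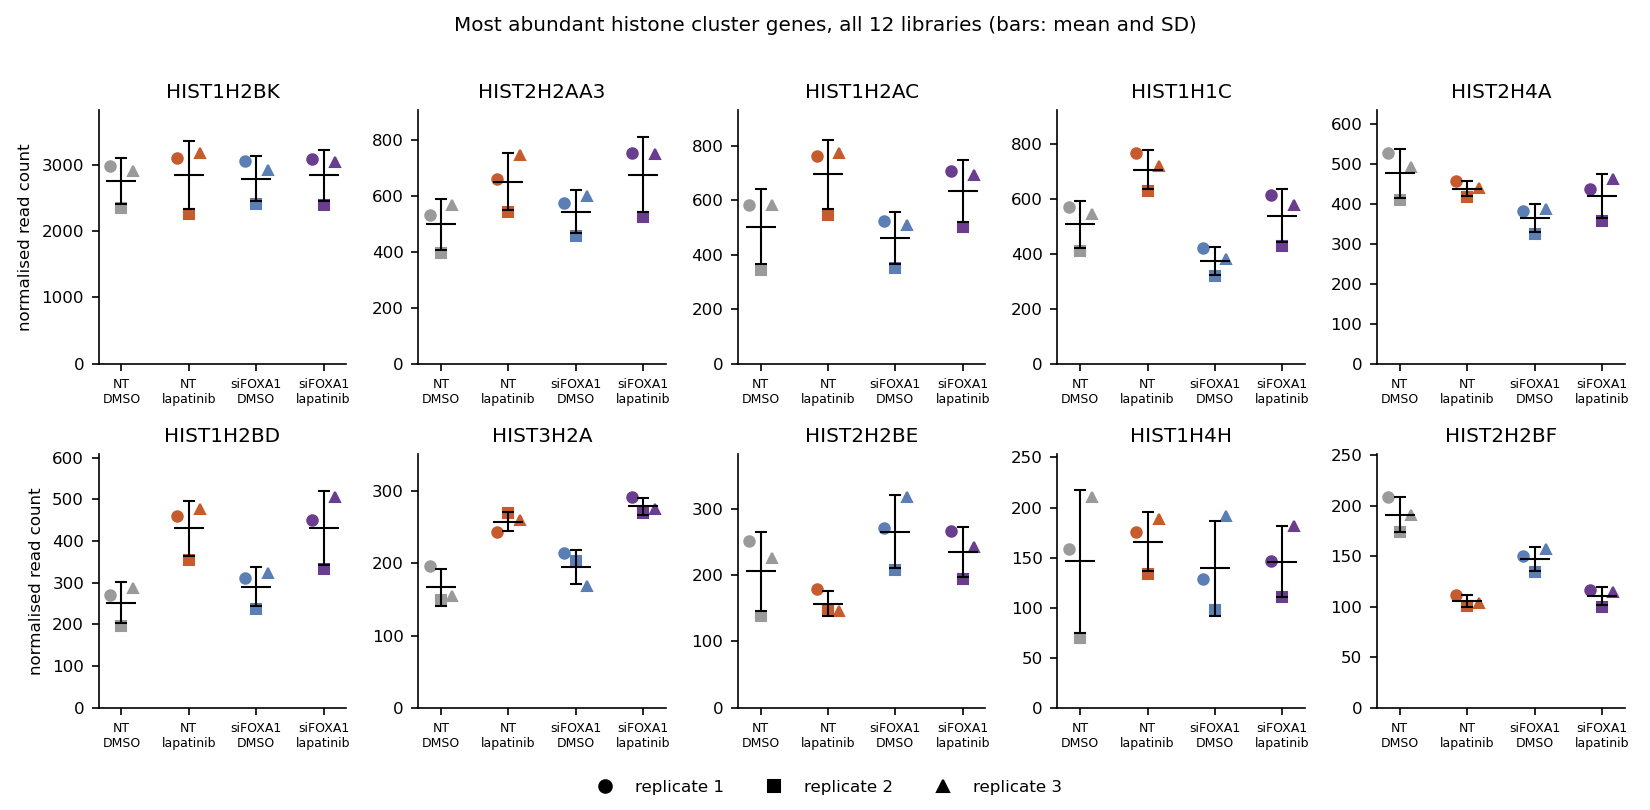
Normalised read counts per library (y axes from 0) of the 10 histone cluster genes with a mean of at least 100, in the 4 groups (x axis), with the marker giving the replicate number and the black bars the mean and SD (n = 3). HIST1H1C, HIST3H2A and HIST1H2BD lie higher and HIST2H2BF lower with lapatinib, without overlap for either siRNA.

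Of the 4 linker histone genes tested, 1 rose (29.9% of all genes) and 2 fell (28.6%). The other, HIST1H1D, was at 12.9 to 24.6 normalised counts in NT DMSO and 13.3 to 22.9 in NT lapatinib and was not called. HIST1H1C was at 570.4, 410.5 and 546 normalised counts in NT DMSO and at 770.4, 630.2 and 720.2 in NT lapatinib, and it rose (log2 fold change 0.50, SE 0.13, edgeR adjusted p = 0.0112). All lapatinib libraries lay above all DMSO libraries. HIST1H1E, another linker histone gene, was at 45.3, 20.8 and 20.1 normalised counts in NT DMSO and 8.32, 12.9 and 10.3 in NT lapatinib and fell (log2 fold change -1.41, SE 0.42, edgeR adjusted p = 0.0182). Its groups did not overlap, and replicate 1 of NT DMSO was higher than the other DMSO libraries. The call of HIST1H1E was lost without NT DMSO replicate 1 (-0.93), NT lapatinib replicate 1 (-1.28) or NT lapatinib replicate 3 (-1.38).

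Among the H2A genes, HIST3H2A was at 196, 149.7 and 154 normalised counts in NT DMSO and at 244, 270.4 and 259.6 in NT lapatinib, without overlap (log2 fold change 0.65, SE 0.13, edgeR adjusted p = 0.00275). HIST2H2AA3 was at 531, 396 and 566 in NT DMSO and 659.8, 543 and 747 in NT lapatinib and overlapped between the groups (log2 fold change 0.41, SE 0.15, edgeR adjusted p = 0.0497), and each lapatinib library lay above the DMSO library of its number. HIST1H2AC was at 581, 345 and 582 in NT DMSO and 761, 547 and 775 in NT lapatinib, with the log2 fold change 0.49 (SE 0.21, edgeR adjusted p = 0.0744). Replicate 2 was the low library of HIST1H2AC in both groups. In the fit blocked on replicate number the edgeR adjusted p was 0.000579, and without replicate 2 the change was 0.41 (edgeR adjusted p = 0.00037). The call of HIST2H2AA3 was lost without NT DMSO replicate 1 (0.45), NT DMSO replicate 2 (0.24), NT lapatinib replicate 1 (0.39) or NT lapatinib replicate 3 (0.30). HIST2H2AC, picked out after its values were seen, was at 32.5 to 42.2 in NT DMSO and 16.6 to 22.6 in NT lapatinib (log2 fold change -0.91, SE 0.24, edgeR adjusted p = 0.0111).

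The H2B genes went both ways. HIST1H2BD was at 271, 196 and 289 normalised counts in NT DMSO and at 461, 354 and 476 in NT lapatinib (log2 fold change 0.79, SE 0.17, edgeR adjusted p = 0.00355). HIST2H2BF was at 209, 174 and 191 in NT DMSO and 112, 100.4 and 104 in NT lapatinib (log2 fold change -0.84, SE 0.13, edgeR adjusted p = 0.00064). Neither gene overlapped between the groups, with HIST1H2BD above and HIST2H2BF below its DMSO libraries. HIST1H2BK, the most abundant, was at 2988, 2355 and 2914 in NT DMSO and 3101, 2265 and 3188 in NT lapatinib, which did not pass the test (log2 fold change 0.07, SE 0.14, edgeR adjusted p = 0.669). HIST2H2BE was at 251, 139 and 226 in NT DMSO and 178, 147 and 146 in NT lapatinib, overlapped and did not pass (log2 fold change -0.37, SE 0.21, edgeR adjusted p = 0.172).

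Of the 17 H3 and H4 genes tested, 0 were called higher by edgeR (29.9% of all genes), 1 was higher at an unadjusted p under 0.05 (32.3% of all genes) and 0 were called higher by DESeq2 (27.4%), while 3 of 9 H3 and 5 of 8 H4 genes had a log2 fold change above 0. HIST1H3G, an H3 gene, was at 24.6, 18.8 and 32.6 normalised counts in NT DMSO and at 8.32, 17.9 and 7.18 in NT lapatinib (log2 fold change -1.14, SE 0.40, edgeR adjusted p = 0.0368). Its groups did not overlap, and DESeq2 gave an adjusted p of 0.0653. The call of HIST1H3G was lost without NT DMSO replicate 1 (-1.17), NT DMSO replicate 3 (-0.94), NT lapatinib replicate 1 (-0.99) or NT lapatinib replicate 3 (-0.90). The H4 genes HIST2H4A, at 529, 409.5 and 494 in NT DMSO and 458, 418 and 440.1 in NT lapatinib (log2 fold change -0.10, SE 0.11, edgeR adjusted p = 0.444), and HIST1H4H, at 159, 69.4 and 211 in NT DMSO and 176, 133 and 189 in NT lapatinib (log2 fold change 0.20, SE 0.34, edgeR adjusted p = 0.631), did not pass the test. The other genes that fell, HIST1H1B, HIST1H2BJ, HIST1H3C, HIST1H3J and HIST1H4A, were singled out with their values known. Of these, HIST1H2BJ was at 84.3 to 159 normalised counts in NT DMSO and the others at 25.6 at most. HIST1H3C reached 10 counts in 1 library, which was in NT DMSO, and HIST1H4A in the NT DMSO libraries alone. HIST1H1B and HIST1H3J reached 10 counts in DMSO libraries alone, with NT or FOXA1 siRNA. The filter itself thus favoured a fall for HIST1H3C, HIST1H4A, HIST1H1B and HIST1H3J. With at least 10 counts in every sample 3 genes fell in place of 9. HIST1H3C lost its call with the replicate block (edgeR adjusted p = 0.053, without the block 0.0344) and also without replicate 2. DESeq2 called 6 lower in place of 9 (28.6% of all genes), with HIST1H1B, HIST1H3C and HIST1H3G not among them.

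**Figure D4:**
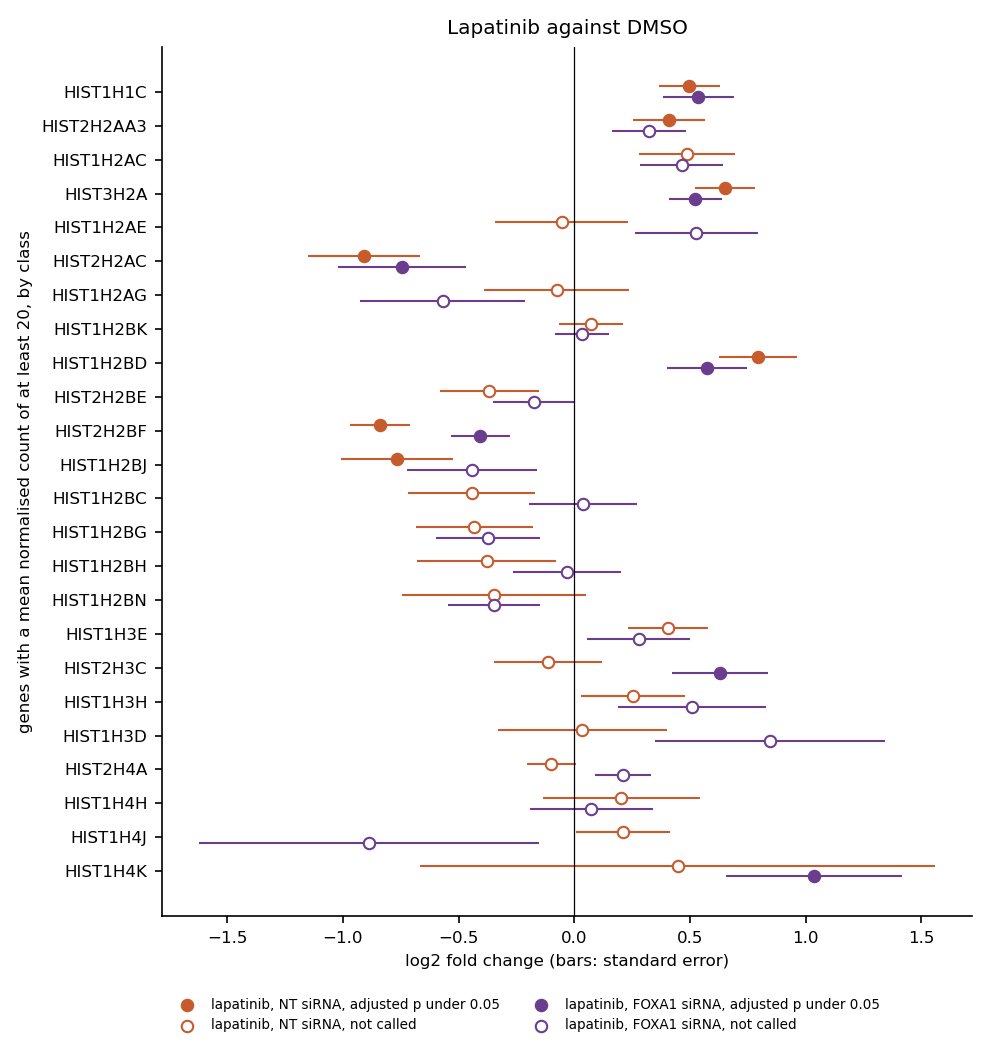
Log2 fold change of lapatinib against DMSO (x axis, bars are standard errors) for the 24 histone cluster genes with a mean of at least 20 normalised counts (y axis, by class), in orange with NT siRNA and in purple with FOXA1 siRNA; filled points are called at an edgeR adjusted p under 0.05. HIST1H1C, HIST3H2A and HIST1H2BD lie to the right and HIST2H2AC and HIST2H2BF to the left with both siRNAs, all filled.

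With FOXA1 siRNA, lapatinib raised 5 genes (11.6% of 43, against 28.5% of the 14007 genes tested) and lowered 5 (11.6%, against 28.7%). With the replicate block, 9 rose and 4 fell, with 33.9% and 33.6% of all genes. Without replicate 2 the counts were 6 and 5, with 29.2% and 29.8% of all genes. The genes that rose were HIST1H1C, HIST3H2A, HIST1H2BD, HIST1H4K and HIST2H3C, and those that fell were HIST1H1B, HIST2H2AC, HIST2H2BF, HIST1H3C and HIST1H4A; HIST2H3C and of the genes that fell all but HIST2H2BF were singled out with their values known. None of the siFOXA1 libraries held 10 counts of HIST1H3C or HIST1H4A. HIST1H1B reached 10 counts in DMSO libraries alone, so the filter favoured a fall for this gene. The median log2 fold change of the 43 was -0.11, against 0.01 for all genes. The number called higher changed by over 1.5 times without siFOXA1 DMSO replicate 1 (3), siFOXA1 DMSO replicate 2 (2), siFOXA1 lapatinib replicate 1 (2), siFOXA1 lapatinib replicate 2 (8) or siFOXA1 lapatinib replicate 3 (3). The number called lower changed by over 1.5 times without siFOXA1 DMSO replicate 1 (2), siFOXA1 DMSO replicate 3 (2), siFOXA1 lapatinib replicate 1 (3), siFOXA1 lapatinib replicate 2 (2) or siFOXA1 lapatinib replicate 3 (2).

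HIST1H1C was at 422, 319 and 383 normalised counts in siFOXA1 DMSO and at 615, 429.6 and 577 in siFOXA1 lapatinib, without overlap (log2 fold change 0.54, SE 0.15, edgeR adjusted p = 0.0159). HIST3H2A was at 214, 203 and 168 in siFOXA1 DMSO and 292, 269 and 275 in siFOXA1 lapatinib (log2 fold change 0.52, SE 0.11, edgeR adjusted p = 0.00445). HIST1H2BD was at 312, 238 and 323 in siFOXA1 DMSO and 452, 334 and 507 in siFOXA1 lapatinib (log2 fold change 0.57, SE 0.17, edgeR adjusted p = 0.0209). For these genes every lapatinib library lay above every DMSO library. HIST2H2BF was at 149.9, 134 and 157 in siFOXA1 DMSO and 117, 100 and 115 in siFOXA1 lapatinib (log2 fold change -0.41, SE 0.13, edgeR adjusted p = 0.026), all lapatinib libraries below all DMSO libraries, and DESeq2 gave an adjusted p of 0.0509. The call of HIST1H1C was lost without siFOXA1 lapatinib replicate 1 (0.42). The call of HIST1H2BD was lost without siFOXA1 DMSO replicate 2 (0.44), siFOXA1 lapatinib replicate 1 (0.52) or siFOXA1 lapatinib replicate 3 (0.45). The call of HIST2H2BF was lost without siFOXA1 DMSO replicate 1 (-0.39), siFOXA1 DMSO replicate 3 (-0.35), siFOXA1 lapatinib replicate 2 (-0.33) or siFOXA1 lapatinib replicate 3 (-0.42).

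HIST1H2AC was at 523, 352 and 510.2 in siFOXA1 DMSO and 708, 502 and 691 in siFOXA1 lapatinib and missed the threshold (log2 fold change 0.46, SE 0.18, edgeR adjusted p = 0.0526; with the replicate block, edgeR adjusted p = 0.000178). HIST2H2AA3 was at 573, 455 and 601 in siFOXA1 DMSO and 754, 523 and 750.3 in siFOXA1 lapatinib and did so as well (log2 fold change 0.32, SE 0.16, edgeR adjusted p = 0.114; with the block, edgeR adjusted p = 0.0021). In both genes each lapatinib library was above the DMSO library of its number, and replicate 2 was the lowest of its group. HIST2H4A was at 383, 324 and 386 in siFOXA1 DMSO and 438, 358 and 464 in siFOXA1 lapatinib (log2 fold change 0.21, SE 0.12, edgeR adjusted p = 0.167; with the block, edgeR adjusted p = 0.0269). HIST1H4K, at 36.0, 15.8 and 41.9 in siFOXA1 DMSO and 66.1, 84.6 and 39.9 in siFOXA1 lapatinib, was called higher (log2 fold change 1.04, SE 0.38, edgeR adjusted p = 0.0443), but without replicate 2 its change was 0.44 (edgeR adjusted p = 0.22) and its sum with HIST1H4J overlapped between the groups. The call of HIST1H4K was lost without siFOXA1 DMSO replicate 1 (1.15), siFOXA1 DMSO replicate 2 (0.71), siFOXA1 lapatinib replicate 1 (1.0) or siFOXA1 lapatinib replicate 2 (0.78). HIST1H2BK (log2 fold change 0.03, SE 0.12, edgeR adjusted p = 0.823), HIST2H2BE (log2 fold change -0.17, SE 0.18, edgeR adjusted p = 0.43) and HIST1H4H (log2 fold change 0.07, SE 0.26, edgeR adjusted p = 0.827) did not pass the test.

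The promoters of genes of 1 class that went in opposite directions with lapatinib are shown to set their motifs side by side. They come from RefSeq on GRCh38.p14 and run from 250 bases before to 50 bases after the start, 5′ to 3′ on the strand of the gene. Capitals mark matches on either strand to the octamer ATTTGCAT, to the box CCAAT, to the box TATAAA, to AAACACA, which is known from H1 promoters, and to the forkhead letters GTAAACA or alternatively GTCAACA. A match to AAACACA can overlap 1 to GTAAACA. HIST1H2BD has 2 listed starts, of which 1 is shown.
HIST1H1C (chr6:26056421-26056720, minus strand): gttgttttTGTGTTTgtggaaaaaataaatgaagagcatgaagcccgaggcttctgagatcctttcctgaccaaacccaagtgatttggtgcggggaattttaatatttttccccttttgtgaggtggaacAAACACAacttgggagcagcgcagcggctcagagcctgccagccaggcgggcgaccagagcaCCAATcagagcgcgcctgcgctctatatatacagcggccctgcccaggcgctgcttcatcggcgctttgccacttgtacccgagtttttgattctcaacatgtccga
HIST1H1E (chr6:26156079-26156378, plus strand): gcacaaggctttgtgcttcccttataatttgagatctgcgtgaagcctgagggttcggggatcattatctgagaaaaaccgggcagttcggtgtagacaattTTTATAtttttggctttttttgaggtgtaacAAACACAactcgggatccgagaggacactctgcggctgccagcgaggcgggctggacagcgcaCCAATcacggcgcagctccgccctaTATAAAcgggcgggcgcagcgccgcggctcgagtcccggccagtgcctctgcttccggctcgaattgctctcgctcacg
HIST1H2BD (chr6:26157872-26158171, plus strand): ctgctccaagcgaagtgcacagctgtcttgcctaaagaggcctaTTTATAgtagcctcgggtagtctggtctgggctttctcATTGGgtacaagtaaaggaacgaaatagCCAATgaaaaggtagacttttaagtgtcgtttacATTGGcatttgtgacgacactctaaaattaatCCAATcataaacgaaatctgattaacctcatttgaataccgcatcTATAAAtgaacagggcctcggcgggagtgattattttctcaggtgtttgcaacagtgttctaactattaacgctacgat
HIST2H2BF (chr1:149812321-149812620, minus strand): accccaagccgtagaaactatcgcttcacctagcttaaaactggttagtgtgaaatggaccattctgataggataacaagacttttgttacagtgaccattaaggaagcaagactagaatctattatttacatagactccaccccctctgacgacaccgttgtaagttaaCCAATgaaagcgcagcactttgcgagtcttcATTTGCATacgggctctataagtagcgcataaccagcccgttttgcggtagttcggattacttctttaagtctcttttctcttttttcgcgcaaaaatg

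HIST1H1C and HIST1H1E both held AAACACA and CCAAT, and HIST1H1E also held TATAAA. HIST1H2BD held CCAAT and TATAAA but no ATTTGCAT, and HIST2H2BF held ATTTGCAT and CCAAT but no TATAAA. No forkhead match lay in these 4 windows. A promoter was listed for 61 of the 67 genes, 65 windows in all. ATTTGCAT was in 41.5% of them, against 1.77% of 35116 listed promoters, with 11 of 14 H2A and 15 of 20 H2B windows. CCAAT was in 86.2% against 34.6%, and TATAAA in 66.2% against 11.5%. AAACACA was in 6 of 6 H1 windows against 5.64% of all. GTAAACA was in 3.08% against 3.42% of all promoters and GTCAACA in 3.08% against 2.32%, each in 2 windows. The 2 windows are in each case those of a divergent pair of genes that overlap, HIST1H2AA with HIST1H2BA and HIST1H2AK with HIST1H2BN, so each match is 1 stretch of the genome read from both genes. Other H2A and H2B genes are paired in the same way, and their windows are not independent. These matches describe letters in a window and are not binding sites.

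With FOXA1 siRNA in DMSO more histone cluster genes were called lower than higher. Of the 43 genes, 10 fell (23.3%), against 21% of the 14011 genes tested, a share near that background. By edgeR 0 rose, against 21% of all genes, with 0 higher at an unadjusted p under 0.05 (25% of all genes) and 0 called higher by DESeq2 (21.2%). With the replicate block, 14 fell and 2 rose, HIST1H2BD and HIST2H2BE, with 30% and 29.3% of all genes, and without replicate 2 11 fell and 1 rose, HIST2H2BE, with 27.1% and 26.5% of all genes. DESeq2 called 5 lower, with 20.9% of the genes to which it gave an adjusted p. The median log2 fold change of the 43 was -0.35, against -0.01. For the 10 genes with a mean of at least 100 normalised counts it was -0.02, with 5 above 0 and 5 below. For the 33 genes with a lower mean it was -0.43. The number called lower changed by over 1.5 times without NT DMSO replicate 1 (1), NT DMSO replicate 3 (1), siFOXA1 DMSO replicate 1 (4), siFOXA1 DMSO replicate 2 (2) or siFOXA1 DMSO replicate 3 (0).

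HIST1H1C was at 570.4, 410.5 and 546 normalised counts in NT DMSO and at 422, 319 and 383 in siFOXA1 DMSO and fell (log2 fold change -0.43, SE 0.14, edgeR adjusted p = 0.0426). The groups overlapped through replicate 2 of NT DMSO, and each siFOXA1 library lay below the NT library of its number. HIST2H4A went from 529, 409.5 and 494 to 383, 324 and 386 (log2 fold change -0.38, SE 0.12, edgeR adjusted p = 0.0298) and HIST2H2BF from 209, 174 and 191 to 149.9, 134 and 157 (log2 fold change -0.37, SE 0.12, edgeR adjusted p = 0.0388), both without overlap. HIST1H3G was at 18.8 to 32.6 in NT DMSO and 7.44 to 15.0 in siFOXA1 DMSO (log2 fold change -1.08, SE 0.34, edgeR adjusted p = 0.0355), and DESeq2 did not call it or HIST2H2BF (adjusted p = 0.0784 and 0.0654). HIST1H1D, HIST2H2AC, HIST1H2BC, HIST1H2BH, HIST2H3C and HIST1H4A also fell, with log2 fold changes between -1.16 and -0.72. These 6 genes were singled out with their values known, and DESeq2 called only HIST1H2BC and HIST2H3C of them lower. HIST1H4A passed the filter through the NT DMSO libraries alone, which favoured a fall here. The call of HIST1H1C was lost without NT DMSO replicate 1 (-0.35), NT DMSO replicate 3 (-0.38), siFOXA1 DMSO replicate 2 (-0.33) or siFOXA1 DMSO replicate 3 (-0.45). The call of HIST2H4A was lost without NT DMSO replicate 1 (-0.30), NT DMSO replicate 3 (-0.36), siFOXA1 DMSO replicate 1 (-0.42), siFOXA1 DMSO replicate 2 (-0.31) or siFOXA1 DMSO replicate 3 (-0.43). The call of HIST2H2BF was lost without NT DMSO replicate 1 (-0.30), NT DMSO replicate 3 (-0.37), siFOXA1 DMSO replicate 1 (-0.38), siFOXA1 DMSO replicate 2 (-0.31) or siFOXA1 DMSO replicate 3 (-0.42). The call of HIST1H3G was lost without NT DMSO replicate 1 (-1.10), NT DMSO replicate 3 (-0.86), siFOXA1 DMSO replicate 1 (-1.27), siFOXA1 DMSO replicate 2 (-0.83) or siFOXA1 DMSO replicate 3 (-1.17).

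Other abundant genes did not pass the test. HIST1H2BK was at 3059, 2403 and 2923 normalised counts in siFOXA1 DMSO, within its range in NT DMSO or just above (log2 fold change 0.03, SE 0.11, edgeR adjusted p = 0.847). HIST2H2BE was at 251, 139 and 226 in NT DMSO and at 271, 208 and 318 in siFOXA1 DMSO (log2 fold change 0.38, SE 0.23, edgeR adjusted p = 0.226; with the replicate block, edgeR adjusted p = 0.00812), and each siFOXA1 library was above the NT library of its number. HIST1H2BD had a log2 fold change of 0.22 (edgeR adjusted p = 0.344, with the block 0.0313), again with each library above its number. HIST2H2AA3, HIST1H2AC, HIST3H2A and HIST1H4H had log2 fold changes of 0.13, -0.12, 0.23 and -0.06.

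**Figure D5:**
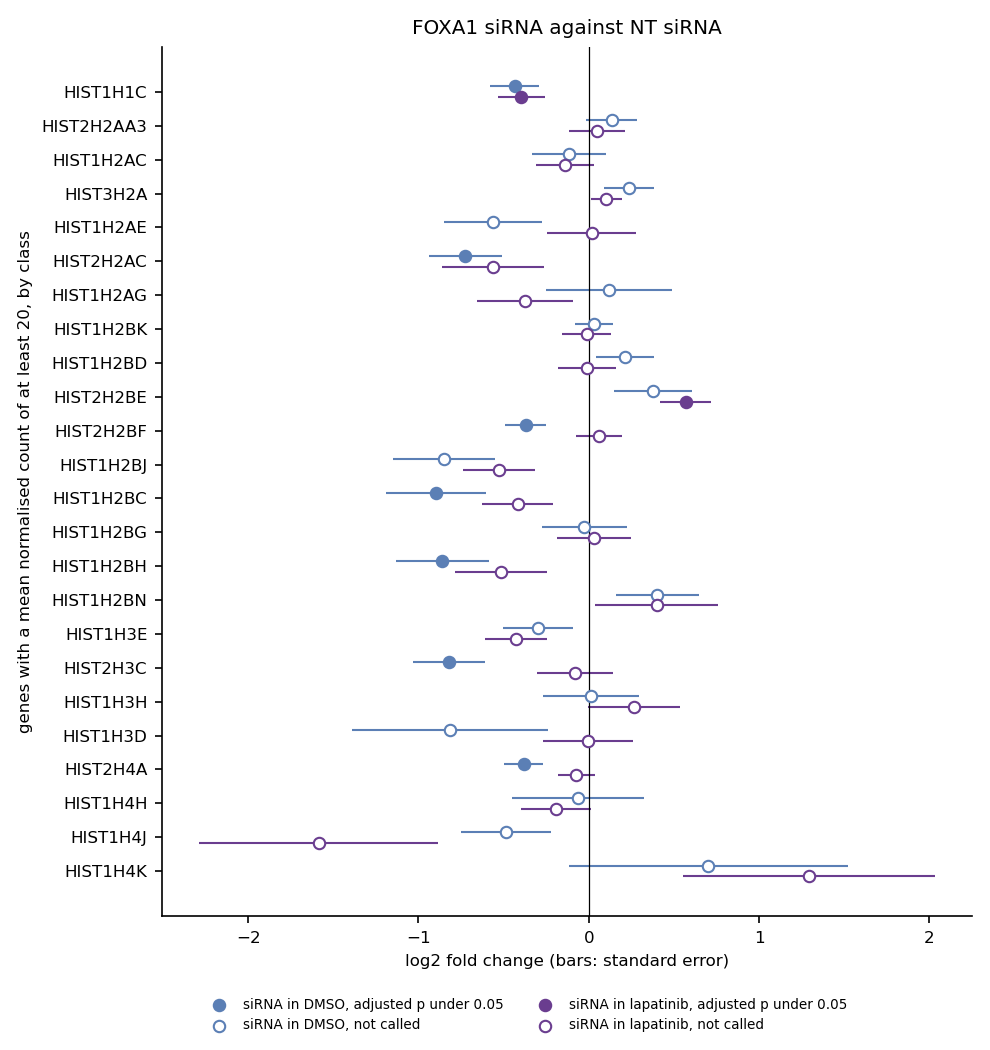
Log2 fold change of FOXA1 siRNA against NT siRNA (x axis, bars are standard errors) for the 24 histone cluster genes with a mean of at least 20 normalised counts (y axis, by class), in blue in DMSO and in purple in lapatinib; filled points are called at an edgeR adjusted p under 0.05. In lapatinib the filled points are HIST1H1C at -0.40 and HIST2H2BE at 0.57.

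With FOXA1 siRNA in lapatinib few of these genes were called. By edgeR 1 rose (2.33% of 43, against 22.2% of the 14011 genes tested) and 1 fell (2.33%, against 21.8%). HIST2H2BE was at 178, 147 and 146 normalised counts in NT lapatinib and at 267, 193 and 243 in siFOXA1 lapatinib, and the groups did not overlap (log2 fold change 0.57, SE 0.15, edgeR adjusted p = 0.0166). HIST1H1C was at 770.4, 630.2 and 720.2 in NT lapatinib and 615, 429.6 and 577 in siFOXA1 lapatinib, all siFOXA1 libraries below all NT libraries (log2 fold change -0.40, SE 0.14, edgeR adjusted p = 0.0484). The call of HIST1H1C was lost without NT lapatinib replicate 1 (-0.33), NT lapatinib replicate 3 (-0.38), siFOXA1 lapatinib replicate 2 (-0.25) or siFOXA1 lapatinib replicate 3 (-0.44). The call of HIST2H2BE was lost without NT lapatinib replicate 3 (0.52), siFOXA1 lapatinib replicate 1 (0.46) or siFOXA1 lapatinib replicate 3 (0.54). With the replicate block 5 fell, against 30.6% of all genes: HIST1H1C, HIST1H2AC, HIST1H2BJ, HIST1H3E and HIST1H4J. HIST1H2AC was then at -0.14 (edgeR adjusted p = 0.0418). HIST1H4J had a library at 0 where HIST1H4K was high, which was replicate 2 of siFOXA1 lapatinib. It was also called lower without replicate 2, and its counts traded places with those of HIST1H4K as given above.

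The median log2 fold change of the 43 was -0.23, against -0.01. The number called higher changed by over 1.5 times without siFOXA1 lapatinib replicate 1 (0) or siFOXA1 lapatinib replicate 3 (0). The number called lower changed by over 1.5 times without NT lapatinib replicate 1 (0), NT lapatinib replicate 3 (0) or siFOXA1 lapatinib replicate 3 (2). The 4 comparisons share groups in pairs, so their values stand side by side and are not independent of each other. Of the 43 genes, HIST1H1C was the only one called by edgeR in all 4, at 0.50 and 0.54 with lapatinib and at -0.43 and -0.40 with FOXA1 siRNA. Its NT DMSO mean of 509 ± 86.0 normalised counts and its siFOXA1 lapatinib mean of 541 ± 97.9 (SD, n = 3) differed by less than the spread.

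The difference of the lapatinib response between the siRNAs was tested as an interaction over the 12 libraries. By edgeR 0 of the 43 genes were called, against 3.99% higher and 3.2% lower of the 14012 genes tested. At an unadjusted p under 0.05 there were 3, HIST1H3J, HIST2H2BF and HIST2H3C, with 22.3% of all genes, and DESeq2 called 0 of the 22 to which it gave an adjusted p, with 11.9% of all such genes. With the replicate block 2 were called higher, HIST2H2BF and HIST2H4A, against 11.1% of all genes. HIST2H2BF had an interaction of 0.45 (SE 0.17, edgeR adjusted p = 0.133, with the block 0.0304) and HIST2H4A of 0.33 (SE 0.17, edgeR adjusted p = 0.283, with the block 0.0403). HIST2H2BF thus fell by 0.84 on the log2 scale with NT siRNA and by 0.41 with FOXA1 siRNA. HIST1H2BK at -0.02, HIST1H1C at 0.06 and HIST1H2BD at -0.21 were not called with or without the block.

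Genes around the histone pathway were read from lists. The DNA replication list fell with lapatinib as a whole. Of its 20 genes, 20 fell with NT siRNA (median -2.00) and 20 with FOXA1 siRNA (median -1.51), against 28.6% and 28.7% of all genes. Its summed count in NT lapatinib was 0.251 of that in NT DMSO. The histone cluster sum was 6679 ± 1133 in NT DMSO and 7224 ± 861 in NT lapatinib (SD, n = 3), a ratio of 1.08 with overlapping groups. With FOXA1 siRNA the ratio was 1.11, also with overlap. With either siRNA each lapatinib library had a higher histone cluster sum than the DMSO library of its number, which was not tested. The 10 most abundant genes made up most of this sum, and of them 4 rose and 1 fell. Of the 33 genes with a mean under 100, 0 rose and 8 fell (median -0.38), against 29.9% and 28.6% of all genes. Some of these passed the filter through DMSO libraries alone. RRM2, a subunit of ribonucleotide reductase, had the log2 fold change -3.56 and the replication licensing genes CDC6, MCM7 and MCM4 -3.43, -2.13 and -0.90. FOXA1 siRNA in DMSO lowered 16 of the 20 (median -0.47), against 21% of all genes. In lapatinib 5 fell and 3 rose, with 21.8% of all genes lower and 22.2% higher, so these shares lay near the background. The part of cell cycle state in the histone values was not tested, and in bulk samples fewer cells in S phase and less RNA per cell cannot be told apart.

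The list for histone mRNA synthesis and 3' end processing fell in part with lapatinib. It also held genes of histone mRNA decay, among them ZCCHC6 and UPF1, so its counts cover making and breakdown together. Of 15, 4 rose and 11 fell with NT siRNA, and 3 rose and 9 fell with FOXA1 siRNA. Of all genes 29.9% rose and 28.6% fell with NT siRNA and 28.5% and 28.7% with FOXA1 siRNA, so the numbers that rose lay near or below the background. SLBP was at 1705, 1509 and 1688 normalised counts in NT DMSO and at 1019, 1117 and 986 in NT lapatinib, without overlap (log2 fold change -0.63, SE 0.07, edgeR adjusted p = 0.000123). It was at 1417, 1346 and 1286 in siFOXA1 DMSO and 1198, 1134 and 1175 in siFOXA1 lapatinib (log2 fold change -0.20, SE 0.06, edgeR adjusted p = 0.0154), and the interaction of SLBP was called at 0.44 (edgeR adjusted p = 0.0153). NPAT, the activator of histone gene transcription, was at 1457, 1140.3 and 1342 in NT DMSO and 1648, 1595 and 1560.4 in NT lapatinib and rose (log2 fold change 0.31, SE 0.09, edgeR adjusted p = 0.014), and with FOXA1 siRNA its change was 0.01 (edgeR adjusted p = 0.894). The interaction of NPAT was -0.28 and was called only with the replicate block (edgeR adjusted p = 0.186, with the block 0.0352). The scaffold gene SYMPK and the uridylyltransferase gene ZCCHC6 rose by 0.72 and 0.91 with NT siRNA, whereas CPSF2 and UPF1 were at -0.19 and -0.14, both called lower.

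Histone chaperones fell with lapatinib in 15 of 20 genes with NT siRNA and in 16 with FOXA1 siRNA, and 3 and 2 rose, against 28.6% and 28.7% of all genes lower and 29.9% and 28.5% higher. SSRP1 and SUPT16H, which form the FACT complex, were at -0.71 and -0.41 with NT siRNA, and NAP1L1 and ATRX at 0.29 and 0.38, all called. The histone variant list held 10 tested genes, most of which are made outside S phase as well, from polyadenylated mRNAs. With lapatinib 2 rose and 4 fell with NT siRNA, and 2 rose and 8 fell with FOXA1 siRNA. FOXA1 siRNA in DMSO lowered 8 of these variants and raised 1. The shares of all genes were 29.9% higher and 28.6% lower with lapatinib and NT siRNA, and 28.5% and 28.7% with lapatinib and FOXA1 siRNA. With FOXA1 siRNA in DMSO they were 21% lower and 21% higher. H1F0, a linker histone variant, was at 11004, 14654 and 11357 normalised counts in NT lapatinib and at 6434, 8263 and 6659 in siFOXA1 lapatinib, without overlap (log2 fold change -0.80, SE 0.13, edgeR adjusted p = 0.00136). H3F3A and H3F3B, which encode the same H3.3 protein, went in opposite directions with FOXA1 siRNA in DMSO (-0.28 and 0.27, both called), and H2AFV was at -0.64.

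The 7 histone cluster genes known to give polyadenylated transcripts as well were HIST1H1C, HIST1H2AC, HIST1H2BC, HIST1H2BD, HIST1H2BK, HIST2H2BE and HIST4H4. With lapatinib 2 of the 7 rose with either siRNA by edgeR, a share near the 29.9% of all genes with NT siRNA and 28.5% with FOXA1 siRNA. By edgeR 0 fell, against 28.6% and 28.7% of all genes, with 0 lower at an unadjusted p under 0.05 and 0 lower by DESeq2. The unadjusted rule took 30.5% of all genes with NT siRNA and 30.9% with FOXA1 siRNA, and DESeq2 28.6% and 27.6%. With the replicate block 3 rose, HIST1H2AC being the third, against 33.8% of all genes with NT siRNA. With FOXA1 siRNA in DMSO 2 fell, HIST1H1C and HIST1H2BC, against 21% of all genes, and in lapatinib 1 fell and 1 rose, against 21.8% and 22.2%. Their summed normalised count was 4779, 3498 and 4648 in NT DMSO and 5329, 4014 and 5366 in NT lapatinib, with replicate 2 lowest in both groups. The list of 7 came from general knowledge and left out other genes with long deposited models. Of the 12 genes with over 200 noncoding bases, 1 rose with lapatinib and NT siRNA and 2 fell, HIST1H2BJ and HIST2H2BF. With FOXA1 siRNA 1 of the 12 rose and 1 fell. The shares of all genes are those given above.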

How the data were processed

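RNAseq of SKBR-3 cells was read from 12 libraries, 3 in each of 4 groups given by the labels. Per gene and library, the authors deposited an expected count, which estimates reads and need not be whole, and a TPM value, which is also scaled by gene length. The authors also deposited FPKM values, scaled by length and depth, and an upper-quartile scaled count, a signal value, which were not used. The submitters' processing notes name RSEM, DESeq2 1.12.3 and R 3.2.2, whereas the methods name STAR, Salmon and hg38, and the labels name 2 library kits, 1 of them stranded. Whether strand was used in counting is not given in the sources used here, so overlapping and antisense genes are uncertain.

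Expected counts were rounded to whole numbers. Genes that reached 10 counts in 1 or more libraries were tested in R 4.3.3 with edgeR 4.0.16 (glmQLFit and glmQLFTest) after TMM normalisation, each comparison on its own 6 samples and the interaction on 12, with calls at an adjusted p (Benjamini-Hochberg) under 0.05. Alternatives were RLE and upper-quartile scaling, DESeq2 1.42.0, other filters, 1 model over 12 samples, an adjusted p under 0.01, leaving out each library, and, added after seeing the data, leaving out replicate 2. The procedures were tested on simulated data. TPM was used only to compare levels between genes, errors are SDs over 3 replicates or standard errors from edgeR, and the limit of 3 counts for a gene not detected covers counting error only.

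Samples with the same replicate number deviated together from their group means (18 pairs, correlations between 0.267 and 0.696 over 10812 genes), so the number was also used as a block. The mean was -0.199 for different numbers. Deviations sum to 0 within a group, so this value is tied to that for the same numbers and is no separate support. Pairs of replicates differed by more than counting noise (chi-square per degree of freedom 3.75 to 18.5). Named genes were those with a mean of at least 100 normalised counts and those called with a log2 change of size 1 or more whose higher group had a mean of at least 20; of other lists, the 4 highest genes plus NPAT and SLBP. Genes and lists were chosen with earlier results of these data known. Sequences came from RefSeq (GRCh38.p14), where all 67 genes matched by gene ID, and from GENCODE v44 and the GRCh38 genome, matched by current symbol. Tables were made with Python 3.11.15, pandas 2.3.3 and matplotlib 3.10.9.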

Additional observations from a re-analysis of the deposited data

How the results depend on the processing

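The counts of histone cluster genes were small, so most alternatives that changed them moved a few genes across the threshold, and why single genes crossed it was not tested. With the replicate number as a block, 9 genes rose with lapatinib and FOXA1 siRNA, 2 rose with FOXA1 siRNA in DMSO, 5 fell with FOXA1 siRNA in lapatinib and 2 had a higher interaction; beside the genes named for this in the report, the pairing changed the calls of HIST1H1E, HIST1H2BJ, HIST1H3D and HIST1H4J with FOXA1 siRNA in DMSO, of HIST1H3E with FOXA1 siRNA in lapatinib and of HIST1H3H and HIST1H4A with lapatinib and FOXA1 siRNA, and no other call of these genes. At an adjusted p under 0.01, 2 rose and 3 fell with lapatinib and NT siRNA, 1 rose and 2 fell with lapatinib and FOXA1 siRNA, and 0 fell with FOXA1 siRNA in DMSO and 0 moved in either direction in lapatinib. With at least 10 counts in every sample, 3 fell with lapatinib and NT siRNA, 2 with FOXA1 siRNA, and 0 with FOXA1 siRNA in lapatinib, with fewer genes tested. DESeq2 called 6 lower with lapatinib and NT siRNA, 2 lower with lapatinib and FOXA1 siRNA and 5 lower with FOXA1 siRNA in DMSO. Without a filter, or with a filter on the compared groups, 3 fell with lapatinib and FOXA1 siRNA. RLE and upper-quartile scaling each left 0 lower with FOXA1 siRNA in lapatinib. Without replicate 2, 1 rose with FOXA1 siRNA in DMSO, 2 fell in lapatinib and 1 interaction was called higher.

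Leaving out 1 library at a time gave 3 to 5 higher and 4 to 12 lower genes with lapatinib and NT siRNA, 2 to 8 and 2 to 5 with lapatinib and FOXA1 siRNA, 0 higher and 0 to 10 lower with FOXA1 siRNA in DMSO, and 0 to 1 and 0 to 2 in lapatinib. No interaction was called in these fits. Among named genes, no called change reversed in any alternative: 59 of 108 refits without 1 library and 145 of 159 other refits kept the call. Of the 43 tested genes, 33 had a mean under 100 normalised counts, where counting error is large and changes are least firmly measured.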
